A study of Mus musculus with 2 samples.

Results

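Transcripts of 10 transcription factors that set the identity and effector state of helper T cells were examined in mouse 5cc7 T cell blasts. The factors were Tbx21, Eomes, Gata3, Rora, Foxp3, Bcl6, Maf, Prdm1, Runx1 and Runx3, chosen by gene symbol from 18193 named genes on the array. They were measured by 31 probe sets annotated to 1 of these symbols alone, and all 31 are accounted for below. The cells carry the 5cc7 T cell receptor, which recognises a moth cytochrome c (MCC) peptide. They had been stimulated with that peptide in culture, and their RNA was taken on day 5. The labels name no strain, age or polarising cytokine. RNA of these blasts was put on 2 Affymetrix mouse 430 2.0 arrays, set 1 and set 2, which form 1 group with no resting, unstimulated or differently treated cells beside it. The design text has both arrays hybridised in parallel, and both descriptions carry the same experiment number. No label states separate cultures for them, and the differences between set 1 and set 2 may be purely technical.

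Each named helper lineage is tied to a factor that switches on its signature genes and represses those of other lineages. T-bet (Tbx21) drives Th1 cells, GATA3 drives Th2 cells, ROR proteins drive Th17 cells, FOXP3 drives regulatory T cells and BCL6 drives follicular helper cells. BLIMP-1 (Prdm1) and BCL6 repress each other, c-MAF acts in several of these lineages, and RUNX proteins work with the lineage factors and in the choice between the CD4 and CD8 fates. These roles are known from other work and were not tested here.

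Each probe set has 1 deposited intensity per array, on a linear scale, and pairs of values below are those of set 1 and then set 2. The median of all probe sets was 36.4 and 37.9. Above background means over a bound on both arrays, the 95th percentile of 53 probe sets for genes of liver, eye, pancreas and kidney. The bound was 52.22 for set 1 and 55.14 for set 2. A gene was called above background when at least 1 of its probe sets was. Probes differ in how well they bind, so intensities of different probe sets are not compared as amounts of RNA. In RNA of a bulk culture, fewer cells that express a gene and less RNA per cell cannot be told apart.

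Of the 10 factors, 8 were above background. They were Tbx21, Gata3, Rora, Bcl6, Maf, Prdm1, Runx1 and Runx3, so factors tied to several different lineages were detected in the same culture. Eomes and Foxp3 were not above background. Among all named genes, 47.8% were above background. The share grew with the number of probe sets a gene has, from 32.5% of genes with 1 probe set and 55.6% with 2 to 80.7% with 6 and 85.7% of the 14 genes with 9. Of the 4 factors with a single probe set, Tbx21, Gata3 and Prdm1 were above background and Foxp3 was not. Of the 31 probe sets 19 (61.3%) were above background, against 38.4% of all 45037 probe sets. Unlike the 31, that total includes 9160 probe sets not listed in the annotation and 932 with several symbols. With 1 group there is no test of these counts.

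**Figure D1:**
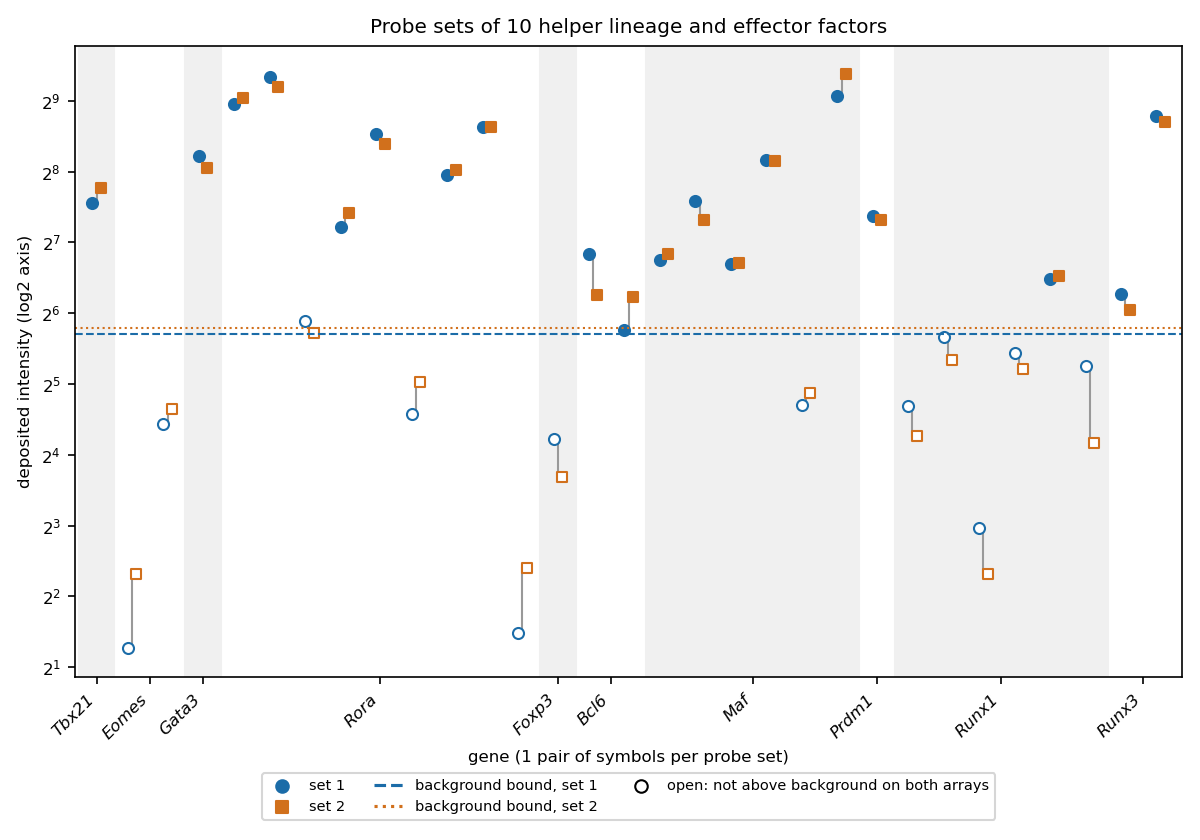
Deposited intensity (log2 axis) of the 31 probe sets of the 10 factors, grouped by gene, with circles for set 1 and squares for set 2 joined by a line, and the background bound of each array as a horizontal line. Filled symbols mark the 19 probe sets above background on both arrays. Every probe set of Eomes and Foxp3 lies below the bounds, and Rora, Maf and Runx1 have probe sets on either side.

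The T-box factors gave opposite calls. Tbx21, the gene of T-bet and the master factor of Th1 cells, was at 188.8 and 217.9 on its only probe set. Both values were clear of the bounds (mean 203.35 ± 20.6, SD, n = 2). Eomes, a T-box paralogue that acts with T-bet in cytotoxic CD8 and natural killer (NK) cells, was at 21.7 and 25.1 on 1 probe set and at 2.4 and 5 on the other. All 4 Eomes values were below the bounds. Of 13 other measured T-box genes, most of them developmental regulators, 2 were above background. These were Mga, a MAX-binding protein with a T-box domain, at 369.1 and 396.4 on the brightest of 5 probe sets, and Tbx6, a factor of mesoderm, at 142.3 and 126.4.

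Of 18 measured genes that T-bet and EOMES are known to control or to depend on, 13 (72.2%) were above background. The share of all named genes was 47.8%. This list, like the other gene lists here, was chosen with earlier results of these data known. No list share was tested. The chemokine receptor gene Cxcr3, a direct target of T-bet, was at 1170.2 and 1079.1. Stat4, which carries the interleukin 12 signal, was at 1072.1 and 902.3. Bhlhe40, a T-bet partner in cytokine control, was at 1541 and 1714.7, Il2rb, an interleukin 2 and 15 receptor chain, at 782.9 and 818.6 and Hopx, a homeodomain protein of lasting Th1 cells, at 285.7 and 264.7. Both chains of the interleukin 12 receptor were above background, Il12rb1 at 312.5 and 256.7 and Il12rb2 at 291.1 and 243.5. So were both chains of the interleukin 18 receptor, with Il18r1 at 335.9 and 339.8 and Il18rap at 211.8 and 248.2. Of the secreted and killing products in the list, Gzmb (granzyme B) was at 807.1 and 754 and Fasl, the death ligand, at 352.4 and 306.5. The chemokine gene Ccl4 was at 140.2 and 109.3, and Ccl5 at 216.5 and 210.4. Ifng, the signature cytokine gene of Th1 cells, stayed under the bounds at 27.4 and 23.8. Also not above background were the chemokine gene Ccl3 at 42.5 and 38.4, the perforin gene Prf1 at 48.9 and 42.6, Hlx, a homeobox partner of T-bet, at 3.2 and 5.2, and Twist1, a feedback repressor of Th1 cytokines, at 10.5 and 6.5. NK cells also express T-bet and EOMES, and of 7 measured NK markers 2 were above background, Klrd1 at 1576.8 and 1683 and Klrk1 at 449.2 and 471.2. Activated T cells can express both. Ncr1, a receptor that defines NK cells, was at 3.8 and 22.7, below the bounds. The summed level of the NK list was 2105.1 and 2245.6, and the part of NK cells in the values above was not tested.

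Gata3, the master factor of Th2 cells, which is also needed for the survival of other T cells, was at 297.3 and 265.3 (mean 281 ± 22.6, SD, n = 2). Its only probe set was well clear of the bound on both arrays. Of 10 measured genes of its programme, most of them with 1 probe set, 2 (20%) were above background. The share was 47.8% of all named genes and 32.5% of those with 1 probe set. The 2 were Stat6 at 567.7 and 611.5 and Il4ra, the interleukin 4 receptor chain, at 236 and 263.5. These act upstream of GATA3 in the interleukin 4 pathway. The other 8 genes, which GATA3 activates or which mark Th2 cells, were all below the call. The cytokine genes were at 27 and 21.1 for Il4, 2.5 and 3.2 for Il5, and 5.7 and 5.8 for Il13. Il24 was at 37.3 and 36.9. The chemokine receptor genes Ccr4 and Ccr8 were at 45.5 and 24 and at 36 and 40.7. Ptgdr2, the prostaglandin receptor of Th2 cells, was at 2.8 and 8.9, and the repressor gene Bhlhe41 at 9.7 and 23.2. Il1rl1 and Areg were not analysed here. In the wider GATA family, Zfpm1, which encodes the GATA cofactor FOG1, was at 187.6 and 177.2, and Gata2, a factor of blood progenitors and mast cells, at 80.9 and 61.9 on 1 of its 2 probe sets. Gata1, Gata4, Gata5, Gata6 and Zfpm2 were not above background, with means between 11.65 and 39.45 on their brightest probe sets. Mast cells express Gata2, and of 10 mast cell and granulocyte markers 2 were above background, Kit at 422.8 and 565 and Ngp at 66.8 and 60.8. The mast cell genes Fcer1a, Cpa3, Mcpt4, Tpsb2 and Ms4a2 were not, and the summed level of the list was 669.2 and 765.9. The part of such cells in the Gata2 value was not tested.

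Rora, a nuclear receptor that promotes Th17 cells, had 9 probe sets, of which 6 were above background. The brightest, 1424034_at, was at 650 and 587.3 (mean 619 ± 44.3, SD, n = 2). A further 5 were above background, 1420583_a_at at 497.5 and 529.1, 1458129_at at 395.7 on both arrays, 1436326_at at 369.4 and 334.2, 1455165_at at 248.1 and 260.1, and 1436325_at at 148.6 and 171.4. The remaining 3 were not. Probe set 1424035_at, built on the same sequence record as the brightest one, was at 59.4 and 52.5 and so exceeded the bound on set 1 alone. The other 2 were 1441085_at at 23.9 and 32.5 and 1458145_at at 2.8 and 5.3. The paralogue Rorb was not above background on any of 3 probe sets.

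Of 9 measured genes of the ROR programme, most of them with more than 1 probe set, 6 (66.7%) were above background. The share was 47.8% of all named genes and 55.6% of those with 2 probe sets. The 6 included the signature cytokine gene Il17a at 143 and 81.8 and the chemokine receptor gene Ccr6 at 276 and 339.4. The other 4 are also used by other activated T cells, namely the signal transducer gene Stat3 at 903.2 and 828, the AP-1 factor gene Batf at 432.4 and 357.9, Irf4 at 427.9 and 392 and Nfkbiz at 163.2 and 174.8. Among these 6, Il17a differed most between the arrays, with a log2 difference of -0.83. Its call was lost with the bound at the 99th percentile, which was 85.5 on set 2, and with both bounds that used a second off-tissue list. Ccl20, the ligand of CCR6, was not above background at 5.4 and 4.1, nor were the interleukin 1 receptor gene Il1r1 at 26.7 and 16.2 and the aryl hydrocarbon receptor gene Ahr at 33.1 and 27.5. Il17f, Il22 and Il23r were not analysed here.

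Foxp3, which defines regulatory T cells and whose loss causes lethal autoimmunity, was at 18.6 and 12.9 on its only probe set. Both values were below the median of all probe sets of their array. Of 13 measured genes typical of regulatory T cells, most of them with more than 1 probe set, 11 (84.6%) were above background. The share was 47.8% of all named genes and 55.6% of those with 2 probe sets. Ctla4, an inhibitory receptor, was at 1844.7 and 1827.6, Tnfrsf18 (GITR) at 1004.3 and 890.5, Tnfrsf4 (OX40) at 660.2 and 624.6 and Il2ra (CD25) at 412.2 and 461.9. These receptors are also induced by activation in conventional T cells. Other genes of this list were above background as well, and the part of regulatory T cells in these values was not tested. Ikzf2, which encodes Helios, was at 544.3 and 522.7 on the brightest of 3 probe sets. Ikzf4 (Eos) was above background on 1 of 3, at 176.6 and 177.3, and Nrp1 on 2 of 4, up to 91.3 and 97.6. Itgae (CD103) was at 341.8 and 369.7 and Izumo1r (folate receptor 4) at 135.1 and 128.5. Ebi3, a subunit of interleukins 27 and 35, was at 457.6 and 411.4. Entpd1, which encodes CD39, was above background on 1 of 3 probe sets, at 73.2 and 68.9. The 2 genes not above background were Nt5e (CD73) at 23.8 and 4.8 and Gpr83 at 52.1 and 48.8, and Lrrc32 was not analysed here. With the bound taken from a list of other organs, 8 of the 13 were above background. The median over the probe sets of a gene also gave 8. Among the paralogues of Foxp3, Foxp1, which maintains T cell quiescence, was above background on all 8 probe sets, and the brightest was at 1594.1 and 1619.4. Foxp4 was above background on 2 of 3 probe sets and Foxp2 on none of 6.

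**Figure D2:**
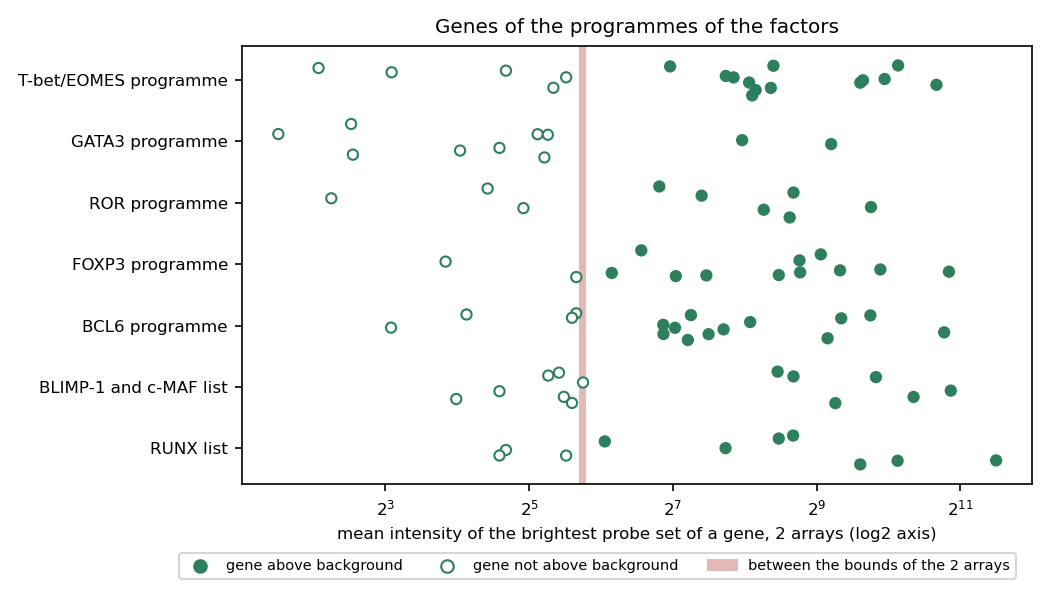
Mean intensity over the 2 arrays (log2 axis) of the brightest probe set of each gene in 7 lists of genes that the factors control or act with, 1 point per gene, with vertical jitter to separate points. Filled points are above background on both arrays, and the band spans the bounds of 52.22 and 55.14. In the GATA3 list 2 of 10 points are filled, against 13 of 18 in the T-bet and EOMES list and 11 of 13 in the FOXP3 list. Among all named genes 47.8% were above background.

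Bcl6, the repressor that directs follicular helper cells and germinal centre B cells, lay close to the bound. Probe set 1421818_at was at 114.4 and 76.4, and 1450381_a_at at 54.4 and 74.7. The first was higher on set 1 and the second on set 2, although both were built on the same sequence record. Their log2 differences, set 2 minus set 1 after centring, were -0.61 and 0.43. The SD of this difference among the 1000 probe sets above background nearest in intensity was 0.29 for the first and 0.24 for the second. Each Bcl6 difference exceeded that SD, in opposite directions. Near the bound such an SD is held down, because probe sets under the bound on either array are left out. How unusual the Bcl6 differences are was not tested. The call of Bcl6 was lost with the bound at the 99th percentile of the same list, at 66.9 and 85.5.

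Genes of the follicular helper programme, most of them with more than 1 probe set, were above background in 12 of 16 cases (75%). The share was 47.8% of all named genes and 55.6% of those with 2 probe sets. The costimulator gene Icos was at 1825.9 and 1681.5, the SLAM receptor gene Slamf6 at 923.5 and 798, the inhibitory receptor gene Btla at 644.2 and 655.4 and Sh2d1a, which encodes the SLAM adaptor SAP, at 579.7 and 559.6. Cxcr5, the receptor that leads T cells into B cell follicles, was at 124.8 and 108.6. Tox was above background on all 3 probe sets, up to 220.1 and 197.6, and Tox2 on 1 of 2, at 127 and 177.9. Pou2af1, a coactivator of octamer factors, was at 263.1 and 276.8, the surface glycoprotein gene Cd200 at 133.9 and 162 and S1pr2, a receptor that holds cells in the follicle, at 110.7 and 150.8. Both interleukin 6 receptor chains, which signal towards BCL6, were above background, Il6st at 163.8 and 197.7 and Il6ra at 114.7 and 119.3. The helper cytokine gene Il21 was not, at 44 and 52.8, nor were Pdcd1 (PD-1) at 36.1 and 64.7, Ascl2, a factor that induces CXCR5, at 8 and 8.9, and Cxcl13 at 17.6 and 17.4. The corepressor gene Bcor, whose protein binds BCL6, was above background on 3 of 3 probe sets, up to 249.6 and 221. The paralogue Bcl6b was not, at 30.9 and 44.4. With the bound taken from a list of other organs, 6 of the 16 programme genes were above background.

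RefSeq gives Bcl6 2 start sites, and the window of 250 bases before to 50 bases after the downstream one is shown because it holds 3 copies of TTCNNNGAA. This is the palindrome of STAT factors, which BCL6 sites resemble, and STAT factors and BCL6 itself are known regulators of Bcl6. The matches, in capitals, read TTCCTGGAA, TTCTGTGAA and TTCCGGGAA, and the palindrome reads the same way on both strands. The upstream window of Bcl6 and 1 window of Foxp3 hold 1 copy each. At least 1 copy was in 8.3% of all 32841 windows and at least 3 were in 11 of them (0.0335%), a count looked at after the Bcl6 matches were seen. A match is a description of the letters and not evidence of binding. The window lies on the minus strand of GRCm38.p6 at chr16:23981234-23981533.
Bcl6, downstream start site: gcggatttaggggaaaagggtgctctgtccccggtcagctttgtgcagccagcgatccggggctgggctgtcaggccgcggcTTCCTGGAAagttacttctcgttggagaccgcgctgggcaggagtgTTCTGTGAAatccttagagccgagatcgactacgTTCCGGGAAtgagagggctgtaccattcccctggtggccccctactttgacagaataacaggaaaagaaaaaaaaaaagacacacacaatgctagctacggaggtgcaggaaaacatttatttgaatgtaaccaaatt

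Prdm1, the gene of BLIMP-1, which drives terminal effector and plasma cell states and opposes BCL6, was at 165.7 and 158.9 (mean 162 ± 4.81, SD, n = 2). Both arrays gave nearly the same value, with a log2 difference of -0.09. Prdm1 and Bcl6, which repress each other, were therefore both above background in this culture, and single cells were not measured. Of 13 measured genes that BLIMP-1 or c-MAF controls or acts with, 6 (46.2%) were above background, against 47.8% of all named genes. Among these 6, 4 are targets of repression by BLIMP-1 in B or T cells. The homing receptor gene Ccr7 was at 1899.1 and 1839.6, the repressor gene Bach2 at 1307 and 1304.5, Myc at 612.6 and 615 and Id3 at 352.4 and 351.1. Other targets of repression were not above background, with Il2 at 23.6 and 8.1, Fos at 43.6 and 45.9, the B cell factor gene Pax5 at 54 and 53.7 and the MHC class II activator gene Ciita at 43.5 and 41.9. Xbp1 and Irf4, which act with BLIMP-1 in plasma cells and are also used by T cells, were at 928.1 and 887.9 and at 427.9 and 392. With the 90th percentile of the same off-tissue list as the bound 10 of the 13 were above background, and with the median of all probe sets as the bound 11 were. Of 10 other measured PRDM genes 5 were above background, Prdm2, Prdm4, Prdm10, Prdm11 and Prdm15, with means between 70.35 and 150.5 on their brightest probe sets.

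B cells and plasma cells also express Bcl6, Prdm1 and Runx1. Of 11 measured B and plasma cell markers 7 were above background, among them Ighm at 2580.6 and 2163, Ms4a1 (CD20) at 389.7 and 365.1, Cd79b at 166.2 and 164.5 and Cd79a at 118.4 and 98.4. The Ighm values are those of the brightest of its 11 probe sets, of which 5 were above background. Pax5, Ebf1, Sdc1 and Tnfrsf17 were not above background. The summed intensity of this list, over the brightest probe sets of all 11 genes, was 3744.2 and 3341.7. The part of B cells in the Bcl6, Prdm1 and Runx1 values was not tested. Of 13 myeloid markers 1, Csf1r, was above background, at 57.3 and 146.7. With 1 array alone 3 were over the bound of set 2 and 2 over that of set 1, and the summed intensity of the list was 397.3 and 605.2. All 9 measured T cell markers were above background, with Cd4 at 1186.1 and 1051.4.

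Maf, a bZIP factor that induces interleukins 4, 10 and 21 in helper cells, had 6 probe sets, of which 5 were above background. The brightest, 1456060_at, was at 537.2 and 664.8 (mean 601 ± 90.2, SD, n = 2). It was followed by 1447849_s_at at 285.7 and 284.1, 1437473_at at 192.9 and 159.7, 1435828_at at 107.8 and 114.7 and 1444073_at at 103.3 and 105. The sixth, 1447945_at, was below the bounds at 26.1 and 29.4. None of the 3 cytokine genes that c-MAF induces was above background, Il10 at 36.6 and 40.4, Il21 at 44 and 52.8 and Il4 at 27 and 21.1. Among the small MAF proteins, which lack an activation domain, Mafk was at 129.6 and 130.9 and Mafg at 121.3 and 111.3, while Maff was not above background at 40.8 and 42.2. Nrl, a large MAF factor of photoreceptors, was not either, at 20.6 and 19.8.

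Both RUNX factors were above background, with unequal support from their probe sets. Runx3, which silences Cd4 in CD8 cells and acts with T-bet in Th1 cells, was at 443.2 and 415.7 on 1440275_at (mean 429 ± 19.4, SD, n = 2) and at 77.2 and 66.3 on 1421467_at. Runx1, needed at many stages of T cell development and for the upkeep of mature CD4 cells, was above background on 1 of 6 probe sets, 1452530_a_at, at 89.9 and 92 (mean 90.95 ± 1.48, SD, n = 2). The other 5 were below the bounds. The next, 1422865_at, was at 50.6 and 40.4, 1440878_at at 43.5 and 37.2, and 1452531_at, built on the same sequence record as the probe set above background, at 38 and 17.9. The last 2 were 1422864_at at 25.7 and 19.2 and 1427650_a_at at 7.8 and 5. With the median of its probe sets in place of the best, Runx1 was not above background. Cbfb, which encodes the shared partner of both RUNX proteins, was at 1205.3 and 1122.5. Of the corepressor genes, Tle3 was above background on 4 of 4 probe sets, up to 523.2 and 553.6, and Tle4, Tle1, Cbfa2t2 and Cbfa2t3 on part of theirs. Tle2 and Runx1t1 were not above background, and Runx2 was not analysed here.

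Genes tied to RUNX function were above background in 7 of 10 cases (70%), against 47.8% of all named genes. Gzmb and Itgae were among the 7. The coreceptor gene Cd4 was at 1186.1 and 1051.4, and Zbtb7b, the CD4 lineage factor that opposes RUNX3, at 378.2 and 438.8. The interleukin 7 receptor gene Il7r was at 2953 and 2835. Of the CD8 coreceptor genes, which RUNX3 maintains, Cd8b1 was at 190.5 and 235.3 and Cd8a at 65.6 and 67.3 on the brightest of 5 probe sets, of which 2 were above background. With _x_at and _s_at probe sets left out, Cd8a was not above background. Crtam, a surface protein of activated CD8 cells, was below the bounds at 27.7 and 28.5. The summed level of these 3 CD8 markers was 283.8 and 331.1. The part of CD8 cells in the Runx3, Gzmb and Cd8b1 values was not tested. Ifng, Prf1 and Il4, all genes bound by RUNX proteins, were not above background.

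Runx1 and Runx3 each have 2 start sites in RefSeq, a distal and a proximal one, and their distal windows are shown because they share a run of 18 bases that holds the RUNX motif ACCACA 2 times. RUNX proteins bind this motif, so these windows carry the letters of the family's own site. The shared run is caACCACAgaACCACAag, with the motif in capitals. It begins 26 bases after the start site of Runx1 and 136 bases before that of Runx3. Among all 32841 windows it was found in 4, those of Runx1, Runx2 and Runx3 and of Gm16225, whose window overlaps that of Runx3 on the other strand, so it lies at 3 places in the genome. Its Runx2 copy begins 21 bases after the start site. The single motif, searched on both strands as ACCACA or TGTGGT, was in 16.8% of all windows, and at least 2 copies were in 1.81%. Among the 13 windows of 9 factors, the motif was in these 2. The Runx1 window lies on the minus strand of GRCm38.p6 at chr16:92826025-92826324 and the Runx3 window on the plus strand at chr4:135120395-135120694.
Runx1, distal start site: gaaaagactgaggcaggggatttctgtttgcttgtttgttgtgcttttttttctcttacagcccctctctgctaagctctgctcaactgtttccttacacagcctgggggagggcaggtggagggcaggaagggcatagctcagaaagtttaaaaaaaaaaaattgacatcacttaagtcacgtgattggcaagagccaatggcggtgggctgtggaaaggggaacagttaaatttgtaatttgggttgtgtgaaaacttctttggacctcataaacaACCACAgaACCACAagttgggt
Runx3, distal start site: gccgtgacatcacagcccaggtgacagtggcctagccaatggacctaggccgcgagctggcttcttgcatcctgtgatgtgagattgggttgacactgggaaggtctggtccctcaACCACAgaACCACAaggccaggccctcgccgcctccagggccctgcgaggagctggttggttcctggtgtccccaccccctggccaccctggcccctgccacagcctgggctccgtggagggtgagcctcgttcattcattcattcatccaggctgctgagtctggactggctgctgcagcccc

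The distal and proximal windows of both RUNX genes differed in CpG content, which in vertebrates marks promoters active in many tissues. The ratio of observed to expected CpG was 0.14 in the distal window of Runx1 and 1.01 in its proximal one, and 0.26 and 1.01 in those of Runx3. Of the 9 factors with a window, 8 had at least 1 window with a ratio over 0.6, from 0.61 for Eomes to 1.05 for Rora and Bcl6. Foxp3 was the exception, at 0.50 and 0.47. Among named genes with a window, 66.3% of the 8621 with a ratio over 0.6 were above background, against 24.2% of the other 5744. Foxp3 was in the lower class, and Eomes, at 0.61, was just over the limit of 0.6. Whether CpG content bears on either call was not tested. The array does not tell which start site was used. No window of Maf was given.

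Other motifs of the factors were searched for in the 13 windows on both strands. The GATA motif AGATAA was found in 1, the second of Foxp3, and in 11.2% of all windows. The ROR motif AGGTCA was found in the same Foxp3 window, 2 times, and in 16.3% of all windows. The MAF motif TGCTGA was in 3 member windows, of Gata3, Foxp3 and Runx3, and in 19.5% of all. The forkhead motif GTAAACA was in 1 window, of Prdm1, and in 3.65% of all. The T-box motif GGTGTGA and the BLIMP-1 motif GTGAAAG were in none of the 13, and in 3.98% and 4.24% of all windows.

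**Figure D3:**
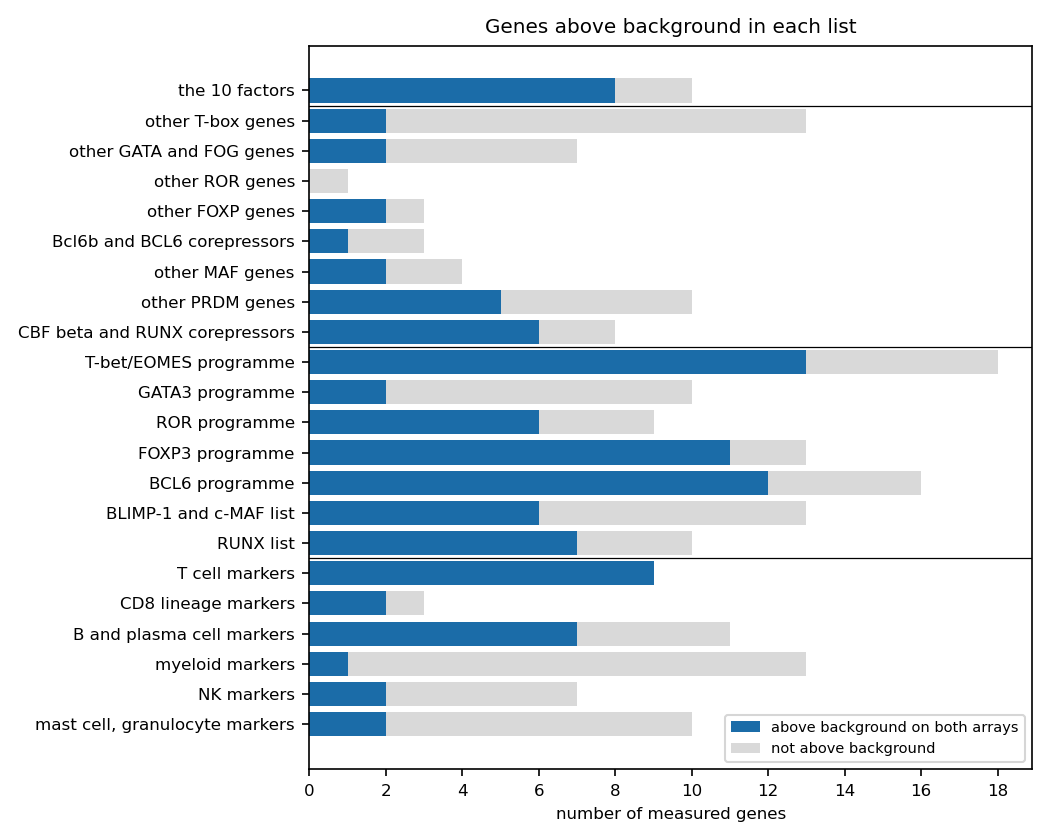
Number of measured genes above background on both arrays (dark) and not above background (light) among the 10 factors, the other genes of their families, the genes of their programmes and the markers of cell types. The 10 factors have 8 dark units, the GATA3 programme 2 of 10, all 9 T cell markers are dark, and 1 of 13 myeloid markers is. Among all named genes 47.8% were above background.

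The factors differed little between the 2 arrays. Of the 19 probe sets above background, 8 were higher on set 2 and 11 on set 1 after centring on the median of all probe sets above background. The log2 differences ranged from -0.61 for Bcl6 to 0.43 for the other Bcl6 probe set, with a median of -0.03. Their SD was 0.23, against 0.24 for all 17308 probe sets above background. A difference over 1.5-fold was found for 1 of the 19, Bcl6 1421818_at, against 2.88% of all probe sets above background, and it was under 1.5-fold before centring. None of the 19 exceeded 2-fold, a limit passed by 0.208% of all. The largest difference outside Bcl6 in size was -0.30, for Maf 1437473_at, and the brightest Maf probe set moved the other way, by 0.28. The 12 probe sets not above background spread more widely, from -1.11 for Runx1 1452531_at to 1.03 for Eomes 1426001_at, with an SD of 0.64.

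**Figure D4:**
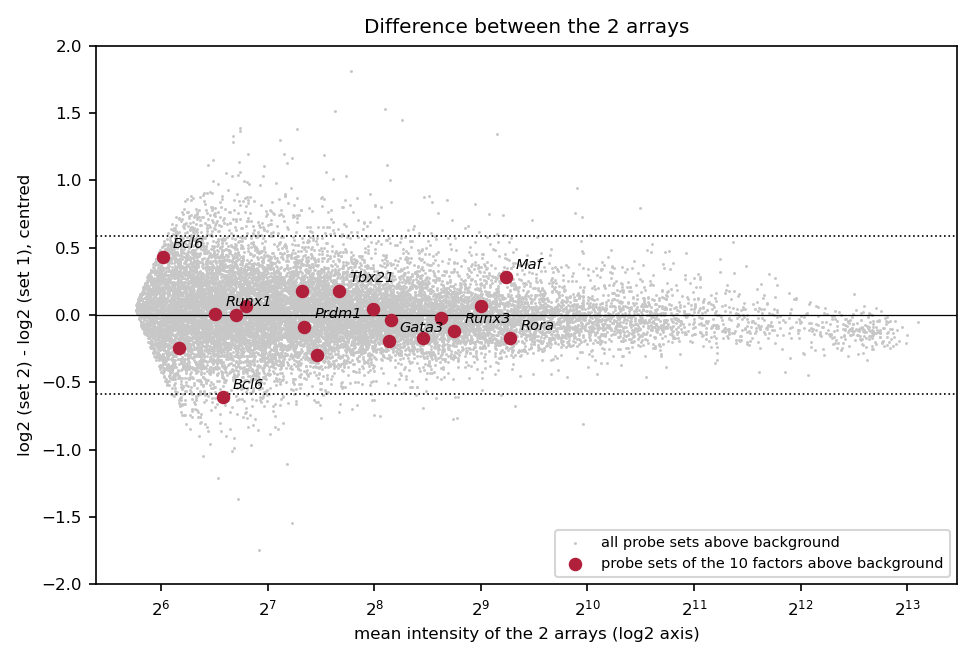
Centred log2 difference of set 2 minus set 1 against the mean intensity of the 2 arrays (log2 axis), for all 17308 probe sets above background in grey and the 19 probe sets of the factors in red. Dotted lines mark a 1.5-fold difference. The Bcl6 probe sets lie on opposite sides of 0, and 1 of them just passes the line.

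The calls of the 10 factors were not equally firm. Tbx21, Gata3, Rora, Maf and Runx3 were above background, and Eomes and Foxp3 were not, under all 10 other ways of calling background that were tried. Prdm1 was lost with the bound taken from a second list, of genes of other organs, which was 167.64 and 165.11 and was passed by 26.6% of all named genes. Bcl6 and Runx1 were lost with that bound too, and with the bound of both lists together, at 93.3 and 98.0, which was added after the data were seen. Each was also lost under 1 further setting given above.

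**Figure D5:**
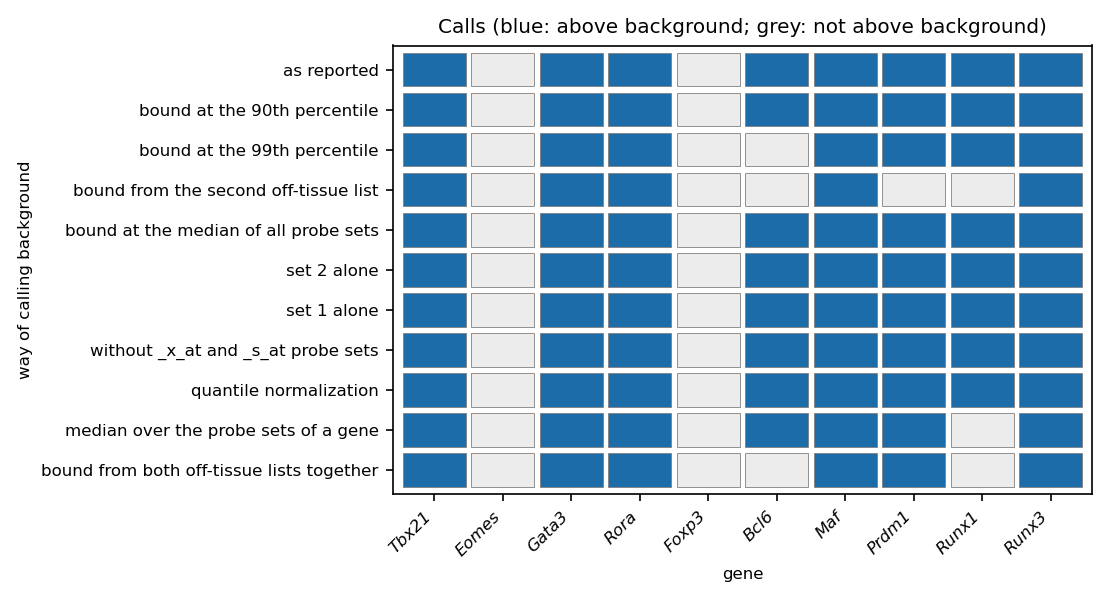
Call of each of the 10 factors (columns) as reported and under 10 other ways of calling background (rows), with blue for above and grey for not above background. Tbx21, Gata3, Rora, Maf and Runx3 are blue and Eomes and Foxp3 grey in every row, while Bcl6 and Runx1 are each grey in 3 rows and Prdm1 in 1.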

How the data were processed

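The deposited values are intensity values per probe set on a linear scale, with 1 decimal, as the values themselves show. The sources used here do not say how the authors corrected background, summarised probes or scaled arrays. Of 45101 probe sets 64 controls were left out. Gene symbols are those of GEO's platform table, in which 34945 probe sets have 1 symbol, 932 have several and 9160 are not listed. The symbols of all 10 factors matched RefSeq's gene table by gene identifier. The members and gene lists were chosen with earlier results of these data known. All members are named, and the genes of the lists by list order or level. Of 45 genes in the list behind the bound, 38 were measured and 3 were above it. A gene's level is that of its brightest probe set. For log2 differences, values under 1 were set to 1, and the median over probe sets above background, 0.03, was subtracted. With 1 group of 2 arrays no test between groups exists, and precision is limited by having 2 arrays. Promoter windows are from RefSeq (GRCm38.p6). Calculations used Python 3.11.15, numpy 2.4.6 and pandas 2.3.3 and were checked on simulated data. The simulated expressed genes lay well above the simulated background, so the check does not bear on calls near the bound.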

Additional observations from a re-analysis of the deposited data

How the results depend on the processing

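The count of factors above background was 7 to 8 under the alternatives (a bound at the 90th percentile, at the 99th or at the overall median, either array alone, no _x_at or _s_at probe sets, quantile normalization, and the median over the probe sets of a gene), except with the bound from the second off-tissue list. That list, of which 12 of 45 genes were above background in the first place, gave 5 factors, 10 of their probe sets and 62 different genes of the family, programme and marker lists, against 8, 19 and 94 as reported, while the share of all named genes above background was 26.6%, against 47.8%. Its bound rests on a few bright probe sets, of Mbp, Tff1 and Tg. With either array alone the 3 counts were 8, 19 to 20 and 97. The bound from both lists together, added after the data were seen, gave 6 factors. The number of probe sets of the factors over 1.5-fold different between the arrays was 1 as reported, 0 without centring, 0 with 64 added before the log2, and 5 when probe sets not above background were included. The difference between the arrays has no value with an array left out. No paired analysis was possible because the 2 arrays form 1 group. Signal near the bound limits the calls of Bcl6 and Runx1. With the bound from the second list 3 B and plasma cell markers, 3 genes of the RUNX partners and none of the other PRDM or MAF genes were above background, and at the 90th percentile 5 myeloid markers were. Il17a, Gata2 and Cd8a were lost at the 99th percentile.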
